A study of Rattus norvegicus with 18 samples.

Results

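CpG-dense sites with intermediate methylation were examined in the striata of 9 juvenile male Wistar rats by reduced representation bisulfite sequencing (RRBS), which digests DNA with an enzyme cutting at CCGG and reads methylated and unmethylated cytosines in CpG-rich fragments. Of 292497 CpGs on chromosomes 1 to 20 that had at least 10 reads on a cytosine in each of the 18 striata, 3384 (1.16%) were members of the set. A member had at least 5 other CpGs of the common set within 100 bp, and its mean methylation over the 6 striata of the untreated rats was between 20 and 80%. Members were thus selected on their methylation in the untreated striata, and this level is given below as a description only.

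All 9 rats received 6-hydroxydopamine (6-OHDA, a toxin that kills dopamine neurons) in 1 medial forebrain bundle at postnatal day 21, so that each animal had a lesioned and a control striatum. From day 35 to day 49 and once more at day 53, when the tissue was collected, 3 rats received saline (untreated, UNT), 3 received L-DOPA (the precursor of dopamine), and 3 received L-DOPA with Riluzole (L-DOPA + R), a drug that dampens glutamatergic transmission. No group without the lesion was included, so the control striata also came from operated animals. Each striatum is a mixture of neurons and glia.

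In mammalian genomes, CpGs lying close together are mostly free of methylation, as in CpG islands at promoters, while isolated CpGs are mostly methylated. Read counts of a whole striatum average over its cells and over both copies of a chromosome. Known examples of partly methylated dense CpGs are imprinted control regions, the ribosomal RNA genes, which are present in many near-identical copies, and the promoters of the clustered protocadherins, adhesion proteins of which single neurons express different combinations.

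Intermediate levels were infrequent among dense CpGs. Of 56822 dense CpGs, 5.96% lay at 20 to 80% in the UNT striata, compared with 27.5% of 235675 sparse CpGs. Most dense CpGs (47593) were under 20%, and 5845 were above 80%. Members were spread over the whole interval, with 671 at 20 to 30%, 545 at 40 to 50% and 638 at 70 to 80%. The 3 members nearest the lower limit had 20.02 to 20.03% and the 3 dense CpGs just outside it 19.99%, and at the upper limit the corresponding values were 79.91 to 79.99% inside and 80.01 to 80.05% outside. The share of dense CpGs that were members ranged from 2.82% on chromosome 15 to 9.31% on chromosome 18, followed by 9.25% on chromosome 12 and 8.40% on chromosome 1. Without 1 stretch of chromosome 1 described below, its share was 5.10%.

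The median depth of a member was 38 reads per striatum, similar to the 36 of dense CpGs with low methylation. Over libraries, the median depth of members was 39 to 66 reads in UNT, 24 to 46 in L-DOPA and 28 to 39 in L-DOPA + R. Only 1357 members (40.1%) had 20 or more reads in every striatum. At 425 members both strands were read in all 18 striata, and the strands differed by a median of 3.89 percentage points, with 35 members (8.24%) more than 20 points apart.

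Members occurred in runs. Taking members within 100 bp of each other as 1 run, the 3384 members formed 977 runs, of which 308 held a single member and 286 held 5 or more. The longer runs contained 2024 members (59.8%), and in 216 of these 286 runs each CpG of the common set between the ends was itself a member. Neighbouring members of a run differed by a median of 7.01 percentage points in UNT. The deviations of the rats from their treatment mean also resembled each other at neighbouring members (Pearson r = 0.618 over 2407 pairs, and 0.517 outside the chromosome 1 stretch described below). Neighbours share reads, libraries and animals, so this correlation is a description across sites. In 44 runs of 5 or more members, the run's mean was between 35 and 65% in each of the 18 striata.

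Few members lay in the promoters located here. No rn6 annotation was used here, so promoters were located by comparing the spacing of their CpGs in RefSeq sequences (GRCr8 build) with the spacing in the rn6 files. This placed 5187 of 33469 promoters, and 15 of them held 67 members, or 1.98% of the set. Matching used CpGs listed in at least 9 files at any depth. A matched promoter therefore need not hold CpGs of the common set, from which members come. Besides these, 51 and 22 members lay within 1 kb of positions that the authors annotate to the promoters of Rn5-8s and Mir2964, described below. By comparison, matched promoters held 17.5% of dense CpGs with low methylation, 0.53% of those with high methylation and 0.099% of sparse intermediate CpGs. The 15 promoters belong to 10 protein-coding genes and 5 long non-coding RNAs. The sequences of 5 promoters are shown because they are the protein-coding genes with 6 or more members, and Acot12 because the authors' annotation names it as well; each runs from 250 bases before to 50 bases after the start of the gene, 5′ to 3′ on its strand, and the capitals mark the member CpGs.

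Crygn: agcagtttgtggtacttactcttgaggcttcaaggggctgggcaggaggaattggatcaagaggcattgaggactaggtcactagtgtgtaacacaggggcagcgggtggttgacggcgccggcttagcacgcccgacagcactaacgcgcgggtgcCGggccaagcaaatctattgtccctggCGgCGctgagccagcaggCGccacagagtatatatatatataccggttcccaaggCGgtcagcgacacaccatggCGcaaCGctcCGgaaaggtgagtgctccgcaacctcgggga
Papolb: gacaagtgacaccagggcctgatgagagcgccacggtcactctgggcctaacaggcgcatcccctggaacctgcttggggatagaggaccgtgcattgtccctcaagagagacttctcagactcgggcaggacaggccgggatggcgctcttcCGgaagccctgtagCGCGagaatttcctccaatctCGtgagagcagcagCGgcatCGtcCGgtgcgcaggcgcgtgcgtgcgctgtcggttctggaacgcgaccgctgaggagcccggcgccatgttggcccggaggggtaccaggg
Slc6a16: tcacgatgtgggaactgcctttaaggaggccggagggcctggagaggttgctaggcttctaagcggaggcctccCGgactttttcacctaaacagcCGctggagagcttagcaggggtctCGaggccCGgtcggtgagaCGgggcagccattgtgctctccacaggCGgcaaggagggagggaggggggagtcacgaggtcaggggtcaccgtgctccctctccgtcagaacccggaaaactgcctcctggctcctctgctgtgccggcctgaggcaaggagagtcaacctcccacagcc
Pcdhga8: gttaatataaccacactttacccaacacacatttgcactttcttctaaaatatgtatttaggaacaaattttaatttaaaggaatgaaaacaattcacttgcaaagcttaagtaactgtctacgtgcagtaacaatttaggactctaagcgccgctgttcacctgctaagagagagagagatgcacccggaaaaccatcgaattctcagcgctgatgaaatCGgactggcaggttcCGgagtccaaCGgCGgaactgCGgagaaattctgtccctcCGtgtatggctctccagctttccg
Acot12: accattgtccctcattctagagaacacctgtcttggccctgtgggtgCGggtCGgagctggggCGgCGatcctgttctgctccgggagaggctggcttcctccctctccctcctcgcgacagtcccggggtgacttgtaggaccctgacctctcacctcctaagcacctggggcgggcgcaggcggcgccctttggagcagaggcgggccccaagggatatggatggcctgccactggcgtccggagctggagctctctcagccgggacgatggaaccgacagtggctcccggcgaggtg

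Crygn, which encodes a crystallin related to the lens proteins, had the most members (8 at chr4:6901289-6901401), Papolb, a testis-enriched poly(A) polymerase, had 7 (chr12:14112329-14112388), and Slc6a16, a solute carrier of the neurotransmitter transporter family, had 6 (chr1:101237272-101237364). Pcdhga8, a gamma protocadherin, also had 6 (chr18:30874844-30874899), and Acot12, an acyl-CoA thioesterase, had 4 (chr2:20857225-20857244). The enzyme site CCGG occurred 5 times in the Slc6a16 promoter and 2 times in that of Pcdhga8, and 51.4% of all 33469 promoters contained it at least once. The matches of Crygn, Papolb and Slc6a16 rested on 14 to 19 consecutive CpGs, a length at which nearly all matches fell on the right chromosome (99.7% at 12 or more). Those of Pcdhga8 and Acot12 rested on 9 CpGs and are less certain, since only 36.6% of such matches fell on the right chromosome before others were dropped. The Pcdhga8 match lies inside the protocadherin interval described below, and the authors' annotation also names Acot12 within 1 kb.

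At 4 of the 5 promoters shown, the rats of the 3 treatments overlapped. The members in the Slc6a16 promoter averaged 50.9, 43.9 and 48.3% in the 3 UNT rats, 47.7, 42.2 and 45.4% in the L-DOPA rats, and 43.0, 48.2 and 43.4% in the L-DOPA + R rats. The Papolb promoter had 32.6, 26.4 and 30.1% in UNT, 33.0, 27.2 and 30.4% in L-DOPA, and 34.7, 28.5 and 34.8% in L-DOPA + R. At both promoters no treatment stood apart, and the striata of a rat differed by at most 9.33 and 12.1 percentage points, respectively. Crygn was at 39.0, 37.2 and 36.5% in UNT, 30.7, 42.1 and 28.4% in L-DOPA, and 31.9, 29.4 and 33.5% in L-DOPA + R. All 3 L-DOPA + R rats lay under the 3 UNT rats at Crygn, whereas the L-DOPA rats lay on both sides of the UNT values. The Pcdhga8 promoter had 38.0, 41.2 and 35.8% in UNT, 39.8, 32.1 and 38.4% in L-DOPA, and 29.9, 26.9 and 42.6% in L-DOPA + R. Here the groups overlapped. Acot12 had 31.9, 43.6 and 46.6% in UNT, 43.0, 30.8 and 40.8% in L-DOPA, and 34.0, 29.2 and 31.0% in L-DOPA + R, again with overlap.

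**Figure D1:**
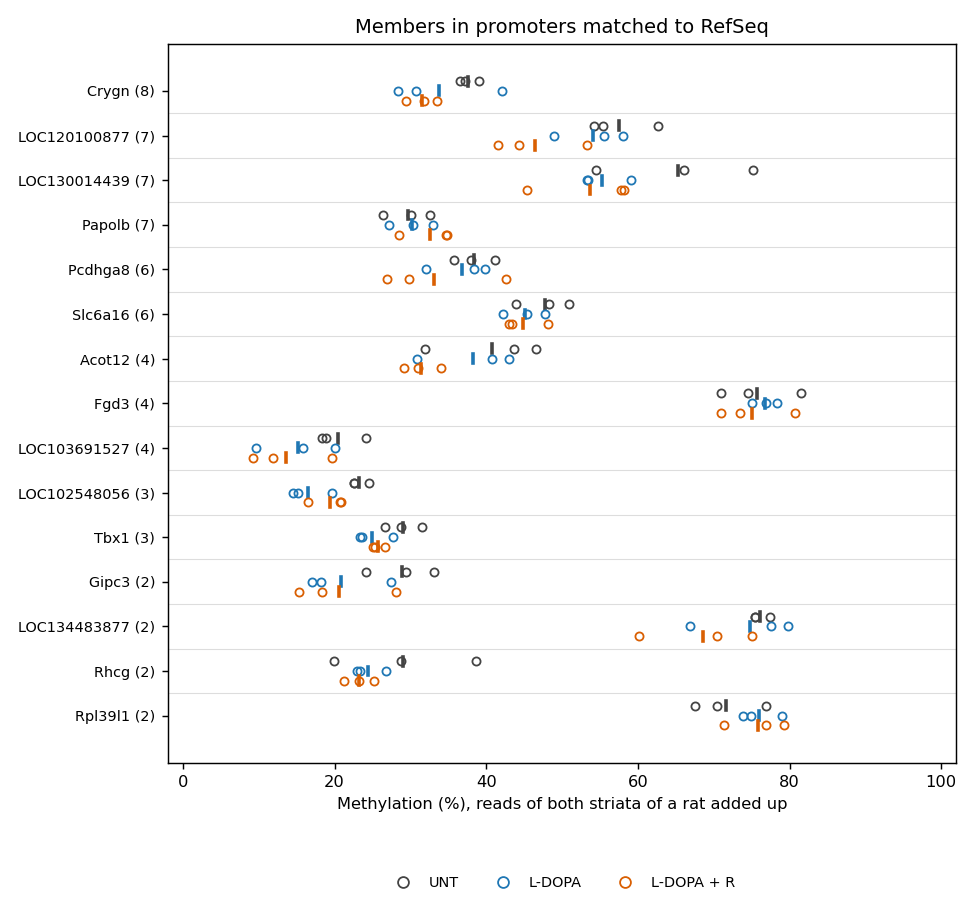
Mean methylation (%) of the members in each of the 15 matched promoters, with the number of members in brackets. Each circle is a rat (reads of both striata added up) and each bar the mean of 3 rats; the Slc6a16 circles lie between 42.2 and 50.9%, and the rats of the 3 treatments overlap there.

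The remaining promoters were those of Fgd3 (an exchange factor for Cdc42), Tbx1 (a T-box transcription factor), Rhcg (an ammonia transporter), Gipc3 (a PDZ-domain protein of the inner ear), Rpl39l1 (a ribosomal protein relative) and 5 non-coding RNAs, with 2 to 7 members each. Their mean level in UNT ranged from 20.4% (LOC103691527) to 76.1% (LOC134483877). All 3 L-DOPA + R rats lay under the UNT rats at LOC102548056, LOC120100877, LOC134483877 and Tbx1. At LOC102548056 the L-DOPA rats did so as well. The treatments overlapped at the rest of these promoters. How often other sets of CpGs separate in this way was not counted, so nothing is read from it.

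The interval of the clustered protocadherin genes on chromosome 18 held members in many places. The clustered protocadherins lie in 3 neighbouring arrays (alpha, beta and gamma), and each variable exon has its own promoter. The interval chr18:30023496-30906101, bounded by the positions the authors annotate to Pcdha6 or Pcdha4 and to Pcdhga11, held 295 CpGs of the common set, of which 108 were dense and 63 were members. Members were 58.3% of its dense CpGs, against the 5.96% of all dense CpGs given above; 36 of the other dense CpGs were under 20% and 9 above 80%. RefSeq lists 38 protein-coding genes between Pcdha4 and Pcdhga11 in GRCr8. Of these, 34 are clustered protocadherins (1 alpha, 22 beta and 11 gamma), so the alpha array is hardly covered. Only the runs at the Pcdhga8 promoter and at Pcdhga11 carried a gene name.

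The 63 members of the interval fell into 14 runs and had similar means in the 9 rats. Their mean level was 52.6, 52.1 and 51.1% in the UNT rats, 49.0, 48.3 and 51.4% in the L-DOPA rats, and 48.4, 48.2 and 52.5% in the L-DOPA + R rats. The treatments overlapped, and the striata of a rat differed by at most 4.61 points. Single members varied more, with a median range of 22.4 points over the 9 rats, and 18 of the 63 were at 20 to 80% in all 18 striata. Single runs held distinct levels. The run with most members (7, chr18:30875744-30875833) was at 36.3, 39.1 and 43.3% in UNT, whereas a run of 5 (chr18:30808572-30808619) was at 65.2, 70.3 and 67.3%. These runs did not overlap in any of the 9 rats, the first reaching 43.3% and the second starting at 60.4%. The run that the authors annotate to Pcdhga11 and to an intron of Pcdhga1 (5 members, chr18:30905268-30905342) was at 53.3, 56.4 and 56.0% in UNT, 52.7, 46.8 and 54.0% in L-DOPA, and 48.6, 53.5 and 56.7% in L-DOPA + R. No member of the interval passed the test of any comparison reported below.

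A stretch of chromosome 1 held the 3 runs with the most members. Between chr1:11903758 and chr1:11971837, 238 of 270 dense CpGs were members (7.03% of the set), in 15 runs. The authors annotate positions in it to the promoter of Rn5-8s, a 5.8S ribosomal RNA gene, and to exon and intron of a protein-coding transcript that no symbol was found for. Ribosomal RNA genes are present in many near-identical copies, which a reference genome holds only in part, so reads from different copies are counted at the same position. The depth was 95 reads at the median member of the stretch, against 36 at the other members, and reached 4354 reads at single cytosines.

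Rats differed far more in the stretch than elsewhere. The mean over its members was 42.6, 26.5 and 48.9% in the UNT rats, 30, 20.2 and 38.6% in the L-DOPA rats, and 36.0, 23.3 and 48.2% in the L-DOPA + R rats. In each treatment the rat numbered 2 was the lowest and the rat numbered 3 the highest, and for each number UNT was the highest and L-DOPA the lowest. The numbers of different treatments mark different rats, and the labels do not say whether such rats share anything else. The treatments overlapped when the numbers were set aside. The striata of the same rat differed by at most 5.37 points, with a median of 1.75. The ratio of the mean square between rats to that between the striata of a rat was 13 in the stretch and 1.30 at the other members. The deviations of the control and the lesioned striatum from their group means had a Pearson r of 0.860 over the 238 members, against 0.130 over the 3146 members outside it and 0.074 over 64812 sparse CpGs of intermediate level. These correlations are across sites of the same libraries.

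**Figure D2:**
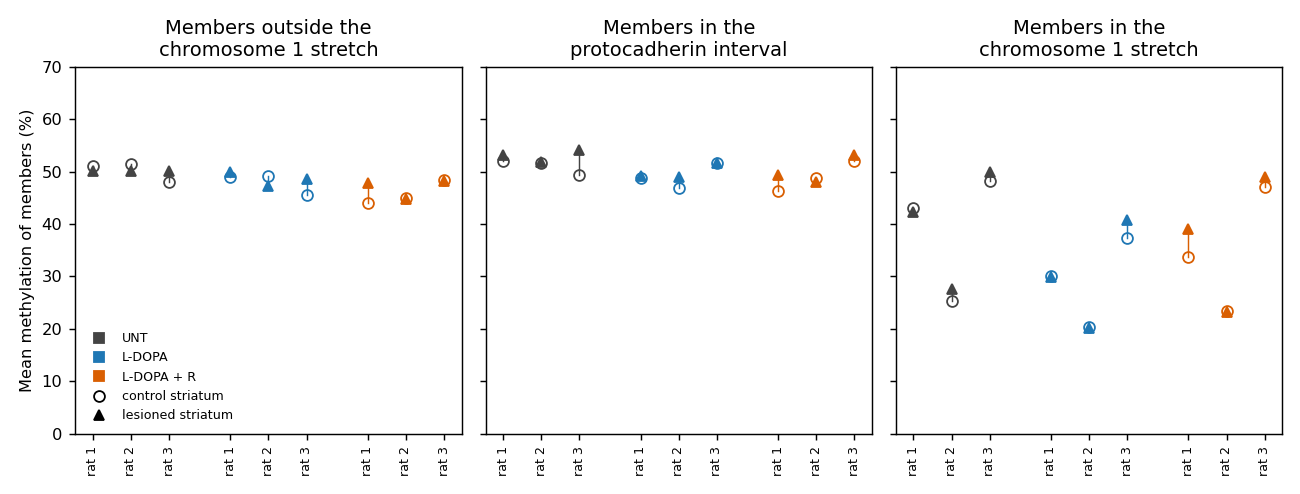
Mean methylation (%) of members in each striatum for members outside the chromosome 1 stretch (3146), in the protocadherin interval (63) and in the chromosome 1 stretch (238). Open circles are control striata, triangles lesioned striata, and a line joins the striata of a rat; in the stretch the rats of a treatment lie far apart (26.5 to 48.9% in UNT) and their striata close together.

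The 3 runs with the most members lay in this stretch. The longest (99 members, chr1:11909770-11910899) was at 40.2, 23.2 and 51.4% in UNT, 30.3, 18.9 and 41.6% in L-DOPA, and 36.6, 22.5 and 50.5% in L-DOPA + R. The next (27 members, chr1:11906139-11906388), annotated to the Rn5-8s promoter, was at 42.7, 25.5 and 39.9% in UNT, 28.0, 12.3 and 26.2% in L-DOPA, and 28.2, 20.1 and 42.1% in L-DOPA + R. In both runs the range of the rats within a treatment was larger than the differences between treatment means. The runs of 20 and 13 members (chr1:11911023-11911291 and chr1:11904432-11904664) had the same lowest UNT rat, with UNT values from 24.7 to 61.4% and from 27.0 to 38.8%.

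The other 4 of the 8 longest runs lay elsewhere and had no gene name within 1 kb. Names were available only at positions annotated by the authors, which are differentially methylated sites, and in matched promoters, so that a run without a name may still lie in a gene. A run of 17 members on chr1:54418634-54418822 was at 47.9, 54.1 and 44.0% in UNT, 32.4, 32.9 and 39.2% in L-DOPA, and 31.0, 38.3 and 44.8% in L-DOPA + R. All L-DOPA rats lay under the UNT rats there, while 1 L-DOPA + R rat lay among them. A run of 17 on chr14:46329958-46330045 was at 59.3, 37.5 and 51.7% in UNT, 36.7, 39.9 and 44.8% in L-DOPA, and 51.9, 25.3 and 51.8% in L-DOPA + R. A run of 14 on chr3:43116080-43116304 was at 43.1, 36.9 and 43.9% in UNT, 44.8, 39.2 and 43.5% in L-DOPA, and 51.3, 42.5 and 43.6% in L-DOPA + R. A run of 13 on chr13:110747717-110747801 was at 38.7, 45.8 and 44.2% in UNT, 53.1, 41.3 and 61.0% in L-DOPA, and 43.3, 47.6 and 59.8% in L-DOPA + R. In these last 3 runs the treatments overlapped.

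Most members kept an intermediate level in the treated rats. In the L-DOPA striata 88.7% of members averaged 20 to 80%, and in the L-DOPA + R striata 88.2%, close to the 90.9 and 90.5% of sparse intermediate CpGs. Because UNT alone set the limits, members could only stay or leave. In 1108 members (32.7%) each of the 18 striata lay at 20 to 80%. The median level of members per striatum was 47.4 to 50% in UNT (median 49.4%), 44.0 to 47.7% in L-DOPA (median 46.5%) and 40.9 to 47.8% in L-DOPA + R (median 44.0%). Averaged per rat, this was 49.0 ± 0.36% in UNT rats, 46.2 ± 0.76% in L-DOPA rats and 44.3 ± 3.20% in L-DOPA + R rats (SD, n = 3 per group). The difference between L-DOPA + R and L-DOPA was smaller than the SD of the L-DOPA + R rats. Sparse intermediate CpGs were in the same order, at 58.6 ± 0.50, 56.8 ± 1.27 and 53.3 ± 2.60%. They were chosen by the same limits in UNT, so this order is a description as well.

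**Figure D3:**
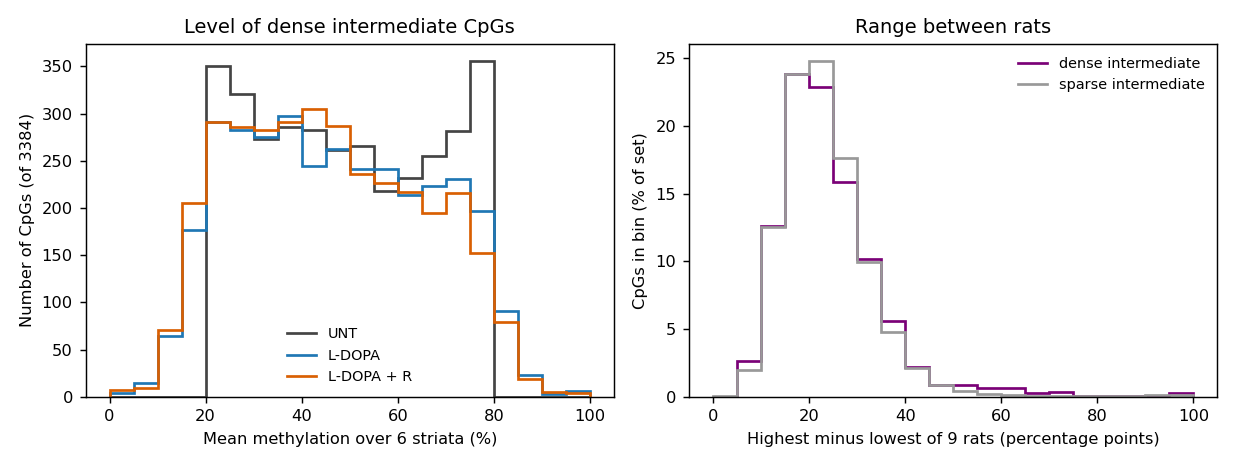
Left, number of members by mean methylation over the 6 striata of a treatment (bins of 5 percentage points); the UNT curve is bounded at 20 and 80% by the way members were chosen, and 88.7% of members (L-DOPA) and 88.2% (L-DOPA + R) stay within it. Right, the range over 9 rats as a share of dense (3384) and sparse (64812) intermediate CpGs; both have a median of 22.2 points.

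The spread between rats was set against that between striata and that of the reads. The range from the lowest to the highest of the 9 rats had a median of 22.2 percentage points among members and 22.2 among sparse intermediate CpGs. The SD between rats of a treatment, each rat taken as the mean of its striata, was 8.67 points (root mean square over members), compared with 6.86 that the spread between the striata of a rat gives for such a mean. For a single striatum the SD within a rat was 9.70 points and the counting error of the reads 8.13. Outside the chromosome 1 stretch the first 2 values were 8.02 and 7.02 points, and in it 14.8 and 4.10. A range over 50 points was found in 108 members (3.19%, 95% Wilson interval 2.65 to 3.84%), 62 of them in the chromosome 1 stretch. The interval covers counting of sites only, which are not independent. Outside the stretch the share was 1.46%, near the 1.30% of sparse intermediate CpGs.

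A few members changed in steps between rats. Among members with 20 or more reads in every striatum, the widest range was at chr12:2048783, where the UNT rats were at 43.5, 96.7 and 48.2%, the L-DOPA rats at 0.0, 52.3 and 0.90%, and the L-DOPA + R rats at 3.39, 0.95 and 99.2%. At chr12:39013646 the values were 57.4, 92.1 and 1.08% in UNT, 2.74, 93.3 and 1.37% in L-DOPA, and 51.0, 44.4 and 49.2% in L-DOPA + R. At both sites most rats lay near 0, 50 or 100%, and rats of the same treatment could lie at different levels. At chr12:39013646 all 3 L-DOPA + R rats were near the middle and no L-DOPA rat was. Neither site was a differentially methylated site in the comparisons of treatments described below. Counting members whose 9 rats all lay at 0 to 10, 40 to 60 or 90 to 100% with more than 1 of these levels gave 5 members (0.148%), against 0.119% of sparse intermediate CpGs. The other 3 of the 5 widest ranges were in the longest run of the chromosome 1 stretch. At chr1:11910436, with 289 to 4265 reads per striatum, the rats were at 43.0, 11.94 and 82.0% in UNT, 54.7, 6.26 and 70.2% in L-DOPA, and 59.0, 39.0 and 78.2% in L-DOPA + R. The striata of a rat were within 8.11 points there. Positions chr1:11910050 and chr1:11910131 had ranges of 74.9 and 74.5 points with the same low and high rats.

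At the other end, some members had nearly the same level in all rats. At chr20:40883533 the 9 rats lay between 77.2 and 82.7%, a range of 5.5 points at 154 to 865 reads. At chr13:111042981 they lay between 50.4 and 56.3%, a range of 5.90 points. The member chr1:101237318, inside the Slc6a16 promoter shown above, lay between 39.1 and 45.6%, a range of 6.52 points. The ranges at chr10:107371469 and chr5:136347924 were 5.80 and 6.37 points. None of the 5 was differentially methylated in any comparison described below, which their choice by a small range largely fixed.

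**Figure D4:**
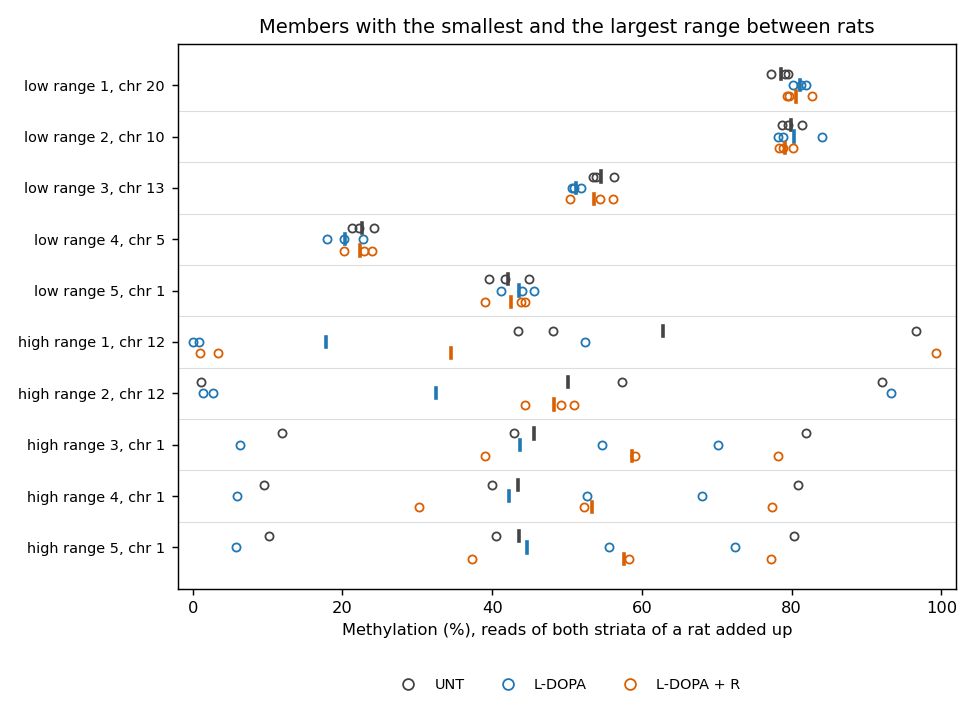
Methylation (%) of the 5 members with the smallest and the 5 with the largest range over the 9 rats, among members with 20 or more reads in every striatum. Circles are rats and bars are means of 3 rats; the first large-range member has rats near 0, near 50 and near 100%, and the last 3 lie in the chromosome 1 stretch.

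L-DOPA + R and L-DOPA were compared to ask what added Riluzole does; this comparison did not enter the choice of members. The authors' kind of test was used, a logistic model of the read counts, corrected for overdispersion and evaluated by a chi-square test, over 568416 CpGs, with an adjusted p (q) under 0.01 as the threshold for a differentially methylated site (DMS). Of 3384 members, 5 (0.148%) were DMS, where 0.0477% of all CpGs tested were DMS. In L-DOPA + R, 3 of them were hypomethylated and 2 hypermethylated, beside 0.0276 and 0.0201% of all CpGs. Of sparse intermediate CpGs, 0.103% were DMS. At an unadjusted p under 0.05 there were 316 members (9.34%), against 7.09% of all CpGs tested and 10.5% of sparse intermediate CpGs. When the F test was used, 0 members were DMS, beside 0.000352% of all CpGs, with 212 members (6.26%) at an unadjusted p under 0.05, against 3.93% of all CpGs. Leaving out single rats gave 2 DMS members (without L-DOPA rat 1) to 20 (without L-DOPA + R rat 3), beside 0.0422 and 0.0898% of all CpGs. The median difference over members was -1.21 points, and over sparse intermediate CpGs -2.51 points.

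The 5 members were single sites in different runs, without a gene name within 1 kb. At chr1:261745899 the L-DOPA rats were at 34.8, 40.5 and 31.7% and the L-DOPA + R rats at 76.7, 70.5 and 75.6%, a difference of 38.3 points (q = 1.53e-05, chi-square test), while the UNT rats ranged from 26.0 to 72.5%. At chr20:50133417 the L-DOPA rats were at 44.1, 50 and 45.7% and the L-DOPA + R rats at 24.1, 25.3 and 27.6% (a difference of -20.5 points, q = 0.000438, chi-square test). Both sites stayed DMS whichever rat was left out, but chr20:50133417 contains a cytosine 50 bases past another and was not tested once such cytosines were dropped, and neither site was DMS with the F test. At chr12:347418 L-DOPA was at 17.2, 18.5 and 18.4% and L-DOPA + R at 47.5, 42.5 and 28.3% (q = 0.00447, chi-square test). At chr17:43996569 the values were 71.7, 81.8 and 73.2% and 43.6, 43.5 and 55.0% (q = 0.00462, chi-square test). At chr20:50224919 they were 51.4, 0.85 and 46.6% and 0.0, 0.76 and 0.0% (q = 0.00462, chi-square test), with UNT at 49.5, 59.0 and 1.06%. The last site stepped between about 0 and the middle within L-DOPA and within UNT. The last 3 sites lost the call when single rats were left out, as 2, 1 and 1 of 6 such fits kept it, respectively.

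**Figure D5:**
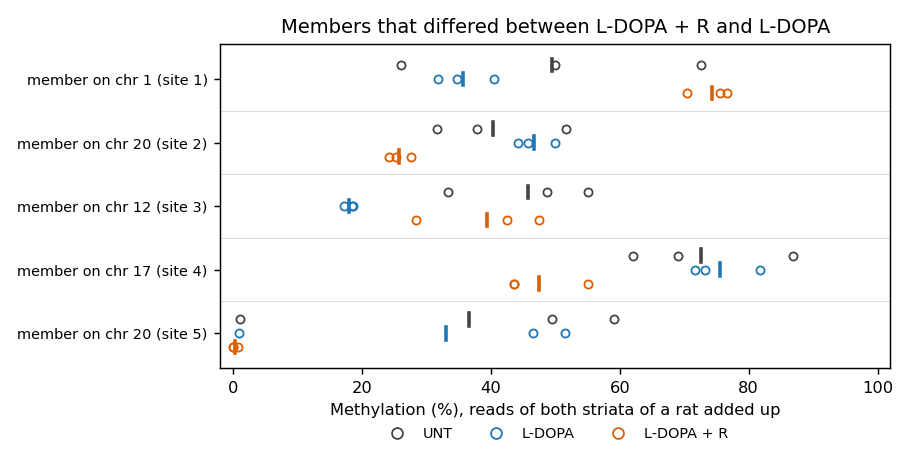
Methylation (%) of the 5 members that differed between L-DOPA + R and L-DOPA, in the order of the text, each circle a rat and each bar the mean of 3 rats. At site 1 the L-DOPA + R rats lie at 70.5 to 76.7%, and at site 5 a rat of L-DOPA (0.85%) lies next to those of L-DOPA + R.

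The treated rats were also compared with UNT. Since the UNT levels chose the members, the following counts are descriptions and nothing is read from them about the members as a set. Between L-DOPA and UNT, 58 members were DMS, beside 0.351% of all CpGs; 49 were hypomethylated and 9 hypermethylated in L-DOPA, beside 0.269 and 0.0828% of all CpGs. Between L-DOPA + R and UNT, 40 members were DMS, beside 0.445% of all CpGs; 35 were hypomethylated and 5 hypermethylated, beside 0.361 and 0.0839% of all CpGs. Both comparisons share the UNT rats, and 22 members were DMS in both, 37.9% of the former and 55.0% of the latter. Over all CpGs tested, 1429 were DMS in both, 62.1% and 49.8%.

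Part of these DMS came from particular places. Of the 58 in L-DOPA, 26 lay in the chromosome 1 stretch, which leaves 32 outside it, and of the 40 in L-DOPA + R 7 lay there. In addition, 26 and 22 of the DMS contained a cytosine 46 to 50 bases past another CpG cytosine of the same strand, as did 756 of all 3384 members, and leaving out such cytosines gave 24 and 13 DMS, beside 0.0776 and 0.132% of all CpGs. The part of this position in the results was not tested. Treating the rat as the unit, with the reads of both striata added up, gave 42, 52 and 4 DMS members in L-DOPA against UNT, L-DOPA + R against UNT and L-DOPA + R against L-DOPA, beside 0.333, 0.47 and 0.0329% of all CpGs in these fits. With the F test the first 2 counts were 10 and 6, beside 0.0622 and 0.0578% of all CpGs.

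Of the 5 members with the smallest p in L-DOPA against UNT, 3 were in the Rn5-8s promoter run. At chr1:11906165 the UNT rats were at 72.2, 65.2 and 67.6%, the L-DOPA rats at 0.88, 4.65 and 6.93%, and the L-DOPA + R rats at 8.14, 1.82 and 19.4%. The site differed by -65.8 points between L-DOPA and UNT and by -58.6 points between L-DOPA + R and UNT, with 14 to 126 reads per striatum. Neighbouring members in the run also differed. At chr1:11906162 the rats were at 67.9, 56.2 and 62.9%, 18.3, 16.3 and 24.8%, and 24.5, 15.6 and 33.6% in the 3 groups, and at chr1:11906149, which also contains a cytosine 46 to 50 bases past another, at 71.2, 62.5 and 68.5%, 16.9, 18.4 and 30.6%, and 18.6, 22.2 and 33.3%. At all 3 sites the treated rats lay under the UNT rats. At chr1:11911488 in the same stretch the UNT rats were at 29.5, 21.7 and 25.8%, the L-DOPA rats at 3.29, 2.90 and 0.64%, and the L-DOPA + R rats at 3.03, 0.0 and 2.96%.

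Outside the stretch, the DMS members with the smallest p against UNT were at such positions. At chr1:54418695, 50 bases past another cytosine and in the run of 17 described above, the UNT rats were at 57.4, 59.2 and 54.4%, the L-DOPA rats at 26.1, 19.8 and 27.4%, and the L-DOPA + R rats at 24.3, 29.9 and 42.1%. At chr3:92145502 UNT was at 74.4, 79.2 and 74.9%, L-DOPA at 96.9, 98.0 and 96.0%, and L-DOPA + R at 96.1, 94.7 and 97.4%. At chr20:48267322 UNT was at 65.2, 65.6 and 63.5%, L-DOPA at 97.4, 94.6 and 96.9%, and L-DOPA + R at 97.5, 97.8 and 94.7%. The last 2 sites were no longer DMS once cytosines 46 to 50 bases past another were left out, with q of 1.0 and 0.954, respectively, for L-DOPA + R against UNT.

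The lesion comparison asks whether dopamine loss in 1 hemisphere altered methylation. No member was a DMS between lesioned and control striata in UNT, L-DOPA or L-DOPA + R by the chi-square test, beside 0.00193, 0.00101 and 0.00176% of all CpGs, nor by the F test. At an unadjusted p under 0.05 there were 192, 171 and 258 members by the chi-square test, and 35, 30 and 39 by the F test. As percentages of members the chi-square counts were 5.67, 5.05 and 7.62%, against 6.45, 5.40 and 6.29% of all CpGs, and the F test counts 1.03, 0.887 and 1.15%, against 1.11, 0.763 and 1.04%. The median difference, lesioned minus control, was -0.14, 0.74 and 1.48 points. The same replicate number marks the same rat here, and with the rat as a block there were 2 DMS members for UNT, 1 for L-DOPA and 0 for L-DOPA + R, beside 0.004, 0.00581 and 0.00805% of all CpGs in these fits.

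These 3 members are named after their values were seen. At chr3:43116269, in the run of 14 described above, the control striata of the UNT rats were at 37.1, 52.9 and 54.5% and the lesioned striata at 19.5, 24.0 and 23.3%. At chr9:41021334 the control striata were at 73.9, 80.9 and 68.1% and the lesioned striata at 54.0, 64.7 and 52.2%. At chr7:139905344 the control striata of the L-DOPA rats were at 40.7, 5.88 and 41.2% and all lesioned striata at 0.0%, with 14 to 34 reads. In each of the 3 sites the lesioned striatum was lower in 3 of 3 rats.

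Members could be compared with the authors' gene annotation of single positions. The annotated positions are those called differentially methylated between treatments in the study, and part of their list was used here, so the genes named below were selected for a difference nearby. Their levels are therefore descriptions, and nothing is read from the order of the groups. Within 1 kb of a named position lay 329 members with 33 names, or 127 members outside the chromosome 1 stretch, and 2992 members had no name from this or the promoter match. Apart from the stretch, most members (22, chr3:8407130-8407658) fell to Mir2964, a microRNA gene, as its promoter. They were at 49.9, 45.4 and 48.0% in UNT, 49.3, 38.2 and 46% in L-DOPA, and 34.7, 39.1 and 45.0% in L-DOPA + R. An exon of Sirt4, a mitochondrial sirtuin, held 11 members (chr12:46872831-46872959) at 55.1, 52.4 and 49.8%, 53.2, 45.7 and 45.7%, and 53.0, 39.0 and 43.2% in the 3 groups.

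An intron of Cacng4, which encodes an auxiliary subunit of AMPA-type glutamate receptors, held 6 members (chr10:95987592-95987692). They were at 55.8, 57.9 and 56.5% in UNT, 44.0, 49.2 and 49.3% in L-DOPA, and 43.6, 43.7 and 47.7% in L-DOPA + R. The striata of a rat differed there by up to 16.4 points. Annotated positions were themselves members in Mir2964, Sirt4, Cacng4 and Map3k5 (1 each) and in Nfatc1 (2), and in Krt20, Chst8 and Bhmt2 they were not. Within each of Mir2964, Sirt4 and Cacng4, 1 member was a DMS in L-DOPA + R against UNT, and each of these contained a cytosine 46 to 50 bases past another. Map3k5, a stress-activated kinase, had 6 intronic members at 76.9, 76.5 and 75.6% in UNT, 70.1, 61.8 and 68.4% in L-DOPA, and 66.9, 67.2 and 69.2% in L-DOPA + R, none of them a DMS. Nfatc1, a calcium-responsive transcription factor, had 6 at 39.2, 32.3 and 41.3%, 28.6, 49.3 and 32.2%, and 22.3, 17.7 and 22.4% in the 3 groups. No member of Nfatc1 passed the test. Krt20, a keratin, had 7 members at 45.5, 46.5 and 39.1% in UNT, 37.8, 42.2 and 36.5% in L-DOPA, and 30.9, 35.0 and 38.7% in L-DOPA + R. The striata of a rat differed there by up to 27.5 points, and none of the 7 was a DMS. Chst8, a sulfotransferase, had 6 members at 63.2, 65.4 and 63.8%, 59.8, 64.2 and 62.5%, and 60.4, 63.1 and 62.5% in the 3 groups. Bhmt2, a homocysteine methyltransferase, had 7 at 39.7, 43.1 and 43.0%, 47.8, 37.1 and 34.7%, and 42.7, 39.1 and 39.97% in the 3 groups. Neither gene had a DMS member.

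Gene groups that are known for partial or regulated methylation were looked up. Of 42 imprinted genes, 7 were located in the common set, 2 of them (Copg2 and Igf2r) with dense CpGs, and none held a member. In UNT the 1 CpG of Copg2 was at 4.04%, and the median of the 11 CpGs of Igf2r was 12.2%. Zrsr1 and its host Commd1 had 7 CpGs each with the same median of 64.5%, none of them dense. Of 15 genes picked from those the study discusses, most of them neuronal, 13 were located, 6 with dense CpGs, and Cacng4 alone held members. These lists were chosen with results of the study known and cover only genes with an annotated position or a matched promoter.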

How the data were processed

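The files list, for each striatum, the position of every CpG cytosine on the rn6 genome, its coverage as a count of reads and its percent methylated and unmethylated, as deposited by the authors, who trimmed the reads with Trim Galore 0.4.0, mapped them with Bismark and filtered and called them per library. Methylated reads were recovered as coverage times percent. Libraries held 18480983 to 49146750 cytosine calls, spike-in controls included. Cytosines under 10 reads were dropped and strands merged. The members and lists were chosen with earlier results of these data known. Following the authors, each CpG was tested with a logistic model on read counts, corrected for overdispersion and evaluated by a chi-square test, and p-values were adjusted by Benjamini-Hochberg over all CpGs tested (4 of 6 striata per treatment, or all 6 for sides); the script was tested on simulated data. A mean over several CpGs weights them equally. The replicates are separate rats, but both striata of a rat entered the treatment tests. Sites were named by fixed rules: the 8 longest runs, the 5 calls with the smallest p, 5 smallest and 5 largest ranges, and the 10 genes with most members. Gene names came from the authors' annotation of their differentially methylated positions, used in part, within 1 kb, without using the differences. They also came, chosen after seeing the data, from RefSeq promoters (GRCr8) that shared the spacing of 9 or more consecutive CpGs on the same chromosome. The alternatives are in the closing section. Python 3.11.15, numpy 2.4.6, pandas 2.3.3 and scipy 1.17.1 were used.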

Additional observations from a re-analysis of the deposited data

Results flagged for a closer look

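The run of 14 members on chr3:43116080-43116304 was picked out because the lesioned and the control striata differed in opposite ways in 2 treatments. In UNT the lesioned striatum was lower in 3 of 3 rats, by a mean lesioned minus control difference of -6.57 percentage points. In L-DOPA it was higher in 3 of 3 rats, by 5.95 points. In L-DOPA + R the direction was mixed, with control striata at 49.8, 43.3 and 40.8% and lesioned striata at 53.2, 41.7 and 47.7%. This difference between treatments was not tested. The member chr3:43116269, which differed between sides in UNT when the rat was a block, lies in this run. In the 26 runs, promoters and other sets looked at, this was the only one with such a pattern, and none of their 78 groups of 6 striata had an outlying striatum.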

How the results depend on the processing

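Counts of DMS members are given in the order L-DOPA against UNT (58 as reported), L-DOPA + R against UNT (40) and L-DOPA + R against L-DOPA (5). Percentages after them are of all CpGs in the same fits. They were 29, 24 and 2 in control striata alone (0.255, 0.306 and 0.0264%) and 25, 17 and 1 in lesioned striata alone (0.237, 0.287 and 0.0284%). They were 10, 6 and 0 with the F test (0.0622, 0.0578 and 0.000352%), and 249, 242 and 97 without overdispersion correction (0.744, 1.22 and 0.285%). Without cytosines 46 to 50 bases past another they were 24, 13 and 4 (0.0776, 0.132 and 0.0437%), and without those at 50 bases 40, 26 and 4 (0.159, 0.227 and 0.0457%). Minimum coverage of 20 reads per cytosine gave 58, 41 and 3 (0.421, 0.599 and 0.0742%). Omitting members of the chromosome 1 stretch from the reported fits, chosen after seeing the data, left 32, 33 and 5 (0.351, 0.445 and 0.0477%). Leaving out single rats gave 35 to 87, 32 to 57 and 2 to 20 (0.299 to 0.382, 0.354 to 0.475 and 0.0401 to 0.0898%). The first fell to 37 without L-DOPA rat 1 (0.314%) and 35 without UNT rat 1 (0.299%). The last fell to 2 without L-DOPA rat 1 (0.0422%) and rose to 20 without L-DOPA + R rat 3 (0.0898%). The labels do not say whether a replicate number marks anything shared between treatments. Same-numbered rats correlated at -0.046 to 0.015 over all CpGs. This cannot decide the question, because even the striata of 1 rat correlated at only 0.033 to 0.111 there. Over members of the chromosome 1 stretch, same-numbered rats correlated at -0.355 to 0.792 (-0.782 to 0.460 for rats of different numbers). The replicate block gave 125, 83 and 14 (0.42, 0.511 and 0.0932%). For lesioned against control striata in UNT, L-DOPA and L-DOPA + R, 0 each were reported. The replicate block, which is the rat and pairs its striata, gave 2, 1 and 0 (0.004, 0.00581 and 0.00805%). No overdispersion correction gave 7, 2 and 0 (0.00897, 0.0129 and 0.0151%). In these comparisons of sides, leaving out single rats gave 0 to 0, 0 to 1 and 0 to 1 (0.00107 to 0.00484, 0.00139 to 0.0033 and 0.00171 to 0.00741%). The cause of these shifts was not tested, and other alternatives left these counts within 1.5 times.

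The set itself depends on its limits. With 20 reads per cytosine it held 439 members in 100 runs, with 10 or more neighbours 304 in 37 runs, with 3 or more 14777 in 5225 runs, and with limits of 30 and 70% 2075 in 651 runs. In the same order, 12.8, 15.5, 2.08 and 3.90% of members ranged over 50 points between rats, and 1.59% did so with the most deeply covered cytosines of each library left out. The share at 20 to 80% in L-DOPA was 85.2% with 20 reads, 79.6% with 10 neighbours and 97.5% with limits of 30 and 70%, and in L-DOPA + R 97.4% with the latter. Leaving out a UNT rat when choosing members gave 3373 to 3384 members, 975 to 1010 runs, 87.5 to 88.0% and 86.2 to 88.2% at 20 to 80%, and 2.42 to 3.34% over 50 points. Depth limits single sites: the median depth was 38 reads. The counting error, taken at each member's own depth and level, was 8.13 points (root mean square over members).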
